A study of Mus musculus with 9 samples.

Results

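Ribosome biogenesis factors are the proteins that transcribe, modify, cut and fold ribosomal RNA and assemble it with ribosomal proteins into the small and the large ribosomal subunit. The group described here was a list of 55 such genes, chosen by name from what their proteins are known to do. Earlier results of these data were known when the list was chosen, so its shares below are not an independent test. All 55 were found among the 25160 genes of the table and passed the filter on low counts that left 11256 genes for testing. The list was followed in bulk RNA sequencing of mouse CD4+ T cells in 3 groups of 3 libraries. Wild-type cells on an antibody against CD40L formed the anti-CD40L group, cells of mice with CD40L deficiency restricted to T cells, on isotype control antibody, formed the group labelled KO, and wild-type cells on isotype antibody formed the isotype group. CD40L is a surface protein of activated T cells that binds CD40 on antigen-presenting cells, and the series title ties its effects on T cell activation and polarization to RACK1, a ribosome-associated scaffold protein.

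All 3 groups were C57BL/6 mice, and all cells were naive CD4+ T cells sorted from spleen and kept on plates coated at 1 µg/ml with anti-CD3e, which engages the T cell receptor complex. Every group thus had the CD3e stimulus, and the groups differed in the other coating antibody, anti-CD40L or isotype at 19 µg/ml, and in genotype. The genotype label of the KO group is "cre"; the promoter that drives it, the deleted part of the gene, the duration of the culture and the number of animals per library are not given in the labels or files read.

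A ribosome starts in the nucleolus, where RNA polymerase I copies the ribosomal DNA into one long precursor. Small nucleolar ribonucleoproteins (snoRNPs) guide its chemical modification, the box C/D class ribose methylation and the box H/ACA class pseudouridylation, while the small-subunit processome folds and cuts the part that becomes the small-subunit RNA, and a separate chain of factors matures the large subunit. Resting T cells hold few ribosomes and expand this machinery when the antigen receptor is engaged, and the transcription factor MYC is a known driver of many of these genes.

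Total counts ranged from 5316482 to 15565711 per library, and anti-CD40L replicate 3 was the shallowest and stood apart. It held a count for 11673 genes, against 14290 to 17428 in the other 8 libraries, and lay at -86.96 on the first principal component of all genes, against -10.22 to 19.1 for the others. The CD4 T cell markers were present in every library, with 7 markers summing to 4010 to 4160 CPM (counts scaled to the library size) in anti-CD40L libraries, 3890 to 4170 CPM in libraries labelled KO and 3960 to 4400 CPM in isotype libraries. Cd40lg, the gene targeted in the KO group, had 109, 132 and 163 CPM in anti-CD40L libraries, 145, 136 and 150.2 CPM in libraries labelled KO and 142, 154 and 189 CPM in isotype libraries. The libraries labelled KO lay within or below the range of the isotype libraries without a called difference (log2 fold change of -0.17 ± 0.13 (SE) by edgeR, adjusted p = 0.935, range 0.314 to 1 over the alternative scalings, filters, tools and single libraries left out), so this level does not check the label, and every direction given below for these libraries rests on the label alone.

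The members were abundant transcripts. Their mean level over all libraries lay between 66.9 CPM for Nle1, a factor of large-subunit maturation, and 4427 CPM for Ncl, which encodes the nucleolar RNA-binding protein nucleolin, with a median of 190 CPM, against a median of 32.1 CPM over all tested genes. Nle1 ranked at percentile 68.8 of the tested genes and 29 of the 55 members lay in the top decile. No member had under 362 counts in any library. The members' median coefficient of variation between the libraries of a group was 7.28% in anti-CD40L libraries, 5.51% in libraries labelled KO and 4.37% in isotype libraries. Together the 55 genes took 2.45%, 2.20% and 2.31% of all counts in the anti-CD40L libraries, 2.16%, 2.17% and 2.27% in the libraries labelled KO and 1.96%, 1.88% and 2.0% in the isotype libraries. The shares of both other groups lay above those of the isotype libraries, and they overlapped each other. Ncl and Npm1 alone made up 33.3% to 36.0% of the members' summed CPM in anti-CD40L libraries, 31.9% to 34.2% in libraries labelled KO and 30.8% to 32.9% in isotype libraries, and without these 2 genes the members still summed to 14594 to 15781 CPM in anti-CD40L libraries, 14510 to 14772 CPM in libraries labelled KO and 12990 to 13673 CPM in isotype libraries.

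Set per kilobase of coding sequence, levels ranged widely within a role group. Among the multifunctional nucleolar proteins they ran from 147 for Gnl3 to 2720 CPM per coding kilobase for Npm1 in isotype libraries. Npm1, encoding the nucleolar chaperone nucleophosmin, led all members, followed by Ncl of the same role group at 1830. The highest members of the other role groups were Nop10 at 715, Fbl at 464, Nop16 at 272, Wdr43 at 195, Imp4 at 174, Pes1 at 165, Tsr1 at 132, Utp18 at 99.5 and Polr1c at 83.0 CPM per coding kilobase. Ddx21 at 500 and Nhp2 at 470 lay above Fbl without leading their own groups. The lowest member was again Nle1 at 42.2, and the median was 108 CPM per coding kilobase. The coding sequence of Nop10 is 192 bases long and reads also fall in the untranslated parts, so a short gene reads high on this scale.

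**Figure D1:**
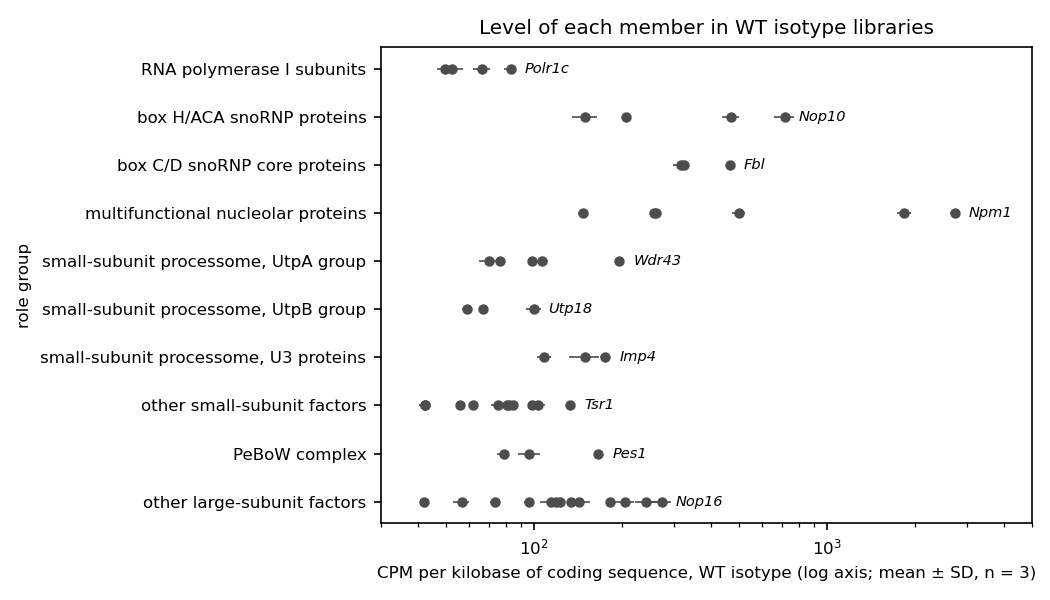
Level of each of the 55 members in the isotype libraries, in CPM per kilobase of coding sequence on a log axis, by role group; points are means and bars SD over n = 3 libraries, and the highest member of each group is named. Npm1 at 2720 lies furthest to the right, followed by Ncl of the same role group at 1830. All RNA polymerase I subunits and UtpB proteins lie at or below 99.5.

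Promoters of the members were searched for the E-box CACGTG, the letters that MYC and its partner MAX are known to bind, which read the same on both strands. RefSeq promoter windows of build GRCm38.p6, from 250 bases before to 50 bases after a start site, were matched to 49 of 55 members. The E-box was found in 12 of these 49 genes (24.5%), against 1111 of 9006 tested genes with a window (12.3%) and 2187 of 27025 genes of the whole table of windows (8.09%). Median GC content was 59.0% in member windows and 60.7% in windows of tested genes. A match describes letters and shows no binding.

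For comparison, 2 of the 9 members that hold the E-box and were not called were picked by hand, Imp4 and the large-subunit methyltransferase gene Nop2. The following stretches show their E-box and that of the 3 members that hold one and rose on anti-CD40L, Utp18, Ltv1 and Utp20. They are written 5′ to 3′ on the strand of the gene with the E-box in capitals, and the coordinates are those of GRCm38.p6. Utp18, Ltv1 and Utp20 lie on the minus strand, and Nop2 and Imp4 on the plus strand.
Utp18 (chr11:93885767-93885866): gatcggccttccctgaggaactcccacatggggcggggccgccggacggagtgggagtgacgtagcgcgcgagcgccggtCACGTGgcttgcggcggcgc
Ltv1 (chr10:13193092-13193121): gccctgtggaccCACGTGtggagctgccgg
Utp20 (chr10:88826765-88826789): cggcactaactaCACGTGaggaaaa
Nop2 (chr6:125131783-125131882): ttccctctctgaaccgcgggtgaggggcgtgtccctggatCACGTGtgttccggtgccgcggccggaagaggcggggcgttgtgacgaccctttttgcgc
Imp4 (chr1:34439679-34439778): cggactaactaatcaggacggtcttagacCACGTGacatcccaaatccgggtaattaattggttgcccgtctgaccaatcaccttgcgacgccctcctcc
The E-box began at position -20 from the start site in Utp18, -60 in Nop2 and -121 in Imp4, all before the start, and at 29 in Ltv1 and 38 in Utp20, after it.

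On anti-CD40L antibody the ribosome biogenesis factors stood higher than on isotype antibody in wild-type cells, by a small step that ran through nearly the whole list. The fold change was positive for 53 of 55 members, with a median log2 fold change of 0.19 and quartiles of 0.12 and 0.26, against a median of -0.01 and 48.2% positive over all 11256 tested genes. A gene was called when its adjusted p, by edgeR's quasi-likelihood test with Benjamini-Hochberg adjustment over all tested genes, was under 0.05. By that rule 11 of 55 members (20.0%) were higher and 0 were lower, where 2.91% of all tested genes were higher and 6.46% lower, 9.37% in all. At an unadjusted p under 0.05 the members numbered 25 higher and 0 lower, against 11.9% and 14.5% of all tested genes. Every anti-CD40L library lay above every isotype library for 33 members (60%), against 15.4% of all tested genes, and every one lay below for 0 members, against 17.2%. No member reached a doubling.

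Abundant genes were called higher more often than all tested genes. Among the 3517 tested genes at or above the mean level of the lowest member, 6.37% were called higher and 7.25% lower, 58.5% were positive, 27.4% did not overlap upward and 15.9% downward, and the median log2 fold change was 0.05. These shares are still below the members' 20.0% called, 53 of 55 positive and 33 of 55 not overlapping. This set, termed genes at member levels below, is bounded only by the lowest member, at percentile 68.8 of the tested genes. The median member ranked at percentile 90.3, so the set is not matched to the members' levels. In bulk samples more cells of a type and more RNA per cell cannot be told apart, and CPM is a share of all counts, so a change in the total RNA per cell is not seen.

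**Figure D2:**
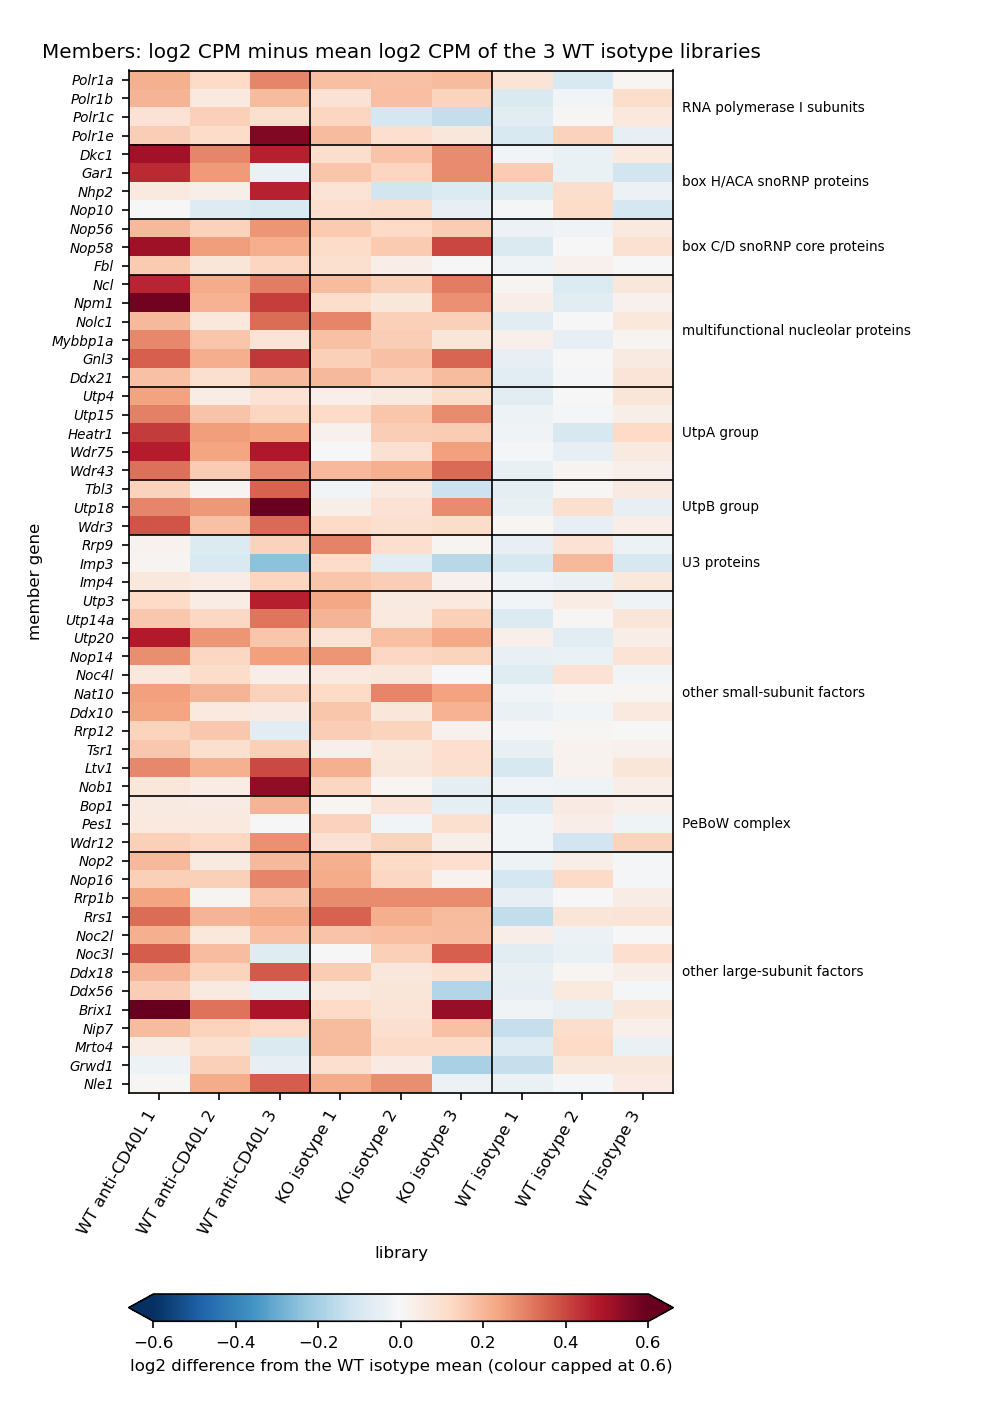
Each row is a member, ordered by role, and each column a library; colour is log2 CPM minus the mean log2 CPM of the 3 isotype libraries, capped at 0.6. The members' median per library was 0.196, 0.125 and 0.205 in the anti-CD40L libraries, 0.14, 0.115 and 0.112 in the libraries labelled KO and -0.043, 0.004 and 0.04 in the isotype libraries.

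The step was seen library by library. Relative to the isotype mean, the median member stood at 0.196, 0.125 and 0.205 on the log2 scale in the anti-CD40L libraries, 0.14, 0.115 and 0.112 in the libraries labelled KO and -0.043, 0.004 and 0.04 in the isotype libraries. The isotype values are taken against their own mean. The median of all genes stayed within 0.006 of 0 in each library, which the scaling of the libraries largely sets. Anti-CD40L replicates 1 and 3 held the highest value for 20 and 19 members and replicate 2 for 4. Isotype replicates 1 and 2 held the lowest value for 26 and 13 members. The high end of the list was thus carried by 2 anti-CD40L libraries and the low end mostly by 2 isotype libraries.

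Among the multifunctional nucleolar proteins 3 of 6 genes rose (50.0%), and they include the most abundant members. The counts of this and each role group below stand against 2.91% of all tested genes and 6.37% of genes at member levels called higher. Role groups held 3 to 13 members, and differences between them were not tested. Ncl, which helps process and fold the ribosomal precursor (chromosome 1, 86344719 to 86359455, build GRCm38), had 5325, 4534 and 4807 CPM in anti-CD40L libraries, 4428, 4288 and 4806 CPM in libraries labelled KO and 3924, 3662 and 4072 CPM in isotype libraries. Anti-CD40L libraries did not overlap isotype libraries, and replicate 1 was the highest of the 9. The log2 fold change on anti-CD40L was 0.33 ± 0.09 (SE), with an edgeR adjusted p of 0.0311 that ranged over 0.00145 to 0.131 across the alternatives. Npm1, whose protein shuttles between nucleolus and cytoplasm and chaperones pre-ribosomes (chromosome 11, 33152498 to 33164142), had 3559.8, 2752 and 3173 CPM in anti-CD40L libraries, 2561, 2495 and 2879 CPM in libraries labelled KO and 2446, 2276 and 2422 CPM in isotype libraries. Its lowest anti-CD40L library, replicate 2, still lay above the highest isotype library, and the log2 fold change was 0.41 ± 0.10 (SE) (edgeR adjusted p = 0.0209, range 0.000263 to 0.0945). Gnl3 encodes nucleostemin, a nucleolar GTPase abundant in dividing cells (chromosome 14, 31012433 to 31019131), and had 304, 276 and 319 CPM in anti-CD40L libraries, 262, 268 and 303 CPM in libraries labelled KO and 229, 237 and 247 CPM in isotype libraries. It also did not overlap between anti-CD40L and isotype libraries (log2 fold change 0.33 ± 0.08 (SE), edgeR adjusted p = 0.0258, range 0.00249 to 0.0885). The other 3 genes of the group, encoding the snoRNP chaperone Nolc1, the nucleolar protein Mybbp1a and the RNA helicase Ddx21, had log2 fold changes of 0.20, 0.18 and 0.16 that were not called.

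Among the snoRNP proteins, Dkc1 stood out and was the member of smallest p. Dkc1 encodes dyskerin, the pseudouridine synthase of box H/ACA particles, which also binds telomerase RNA (chromosome X, 75095854 to 75109776). It had 447, 385 and 435 CPM in anti-CD40L libraries, 339, 355 and 383 CPM in libraries labelled KO and 311, 307 and 328 CPM in isotype libraries. The 3 anti-CD40L libraries lay above all 6 others, and the libraries labelled KO lay above the isotype libraries without overlap. The log2 fold change on anti-CD40L was 0.42 ± 0.08 (SE), or 1.34-fold, with an edgeR adjusted p of 0.00668, and Dkc1 was the one member called in all 19 alternatives, with an adjusted p of 2.33e-05 to 0.0336. Its partners in the same particle were not called. Gar1 had a log2 fold change of 0.24, Nhp2 of 0.19 and Nop10 of -0.06. Nop10, the highest of the 4 per coding kilobase, had 137, 130.0 and 129 CPM in anti-CD40L libraries, 147, 148 and 133 CPM in libraries labelled KO and 137, 148 and 127 CPM in isotype libraries, and its groups overlapped.

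The box C/D core proteins had no called member. Nop58 and Nop56, the paired scaffold proteins, had log2 fold changes of 0.33 ± 0.10 (SE) and 0.20 ± 0.07 (SE), with edgeR adjusted p of 0.0574 and 0.0952. Nop58 was at 720.3, 603 and 590.2 CPM in anti-CD40L libraries, 547, 564 and 669 CPM in libraries labelled KO and 477, 506 and 539 CPM in isotype libraries, so its anti-CD40L and isotype libraries did not overlap although it missed the threshold. Fbl, the methyltransferase fibrillarin, had 507, 479 and 497 CPM in anti-CD40L libraries, 487, 468 and 455 CPM in libraries labelled KO and 448, 463 and 454 CPM in isotype libraries. Its anti-CD40L libraries lay above its isotype libraries by a log2 fold change of 0.12 ± 0.07 (SE), not called (edgeR adjusted p = 0.293).

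RNA polymerase I subunits were all positive and none was called. Polr1a, the largest catalytic subunit, was at a log2 fold change of 0.21 ± 0.08 (SE), and Polr1b, the other large catalytic subunit, at 0.15 ± 0.08 (SE). Polr1e was the highest of the group at 0.27 ± 0.12 (SE). Its libraries were at 83.8, 81.7 and 111 CPM on anti-CD40L and 71, 83.2 and 73.2 CPM on isotype, so replicate 3 of the anti-CD40L group was far above the rest and the groups overlapped. Polr1c, a subunit shared with RNA polymerase III and the lowest of the group at 0.11 ± 0.09 (SE), had 91.4, 94.9 and 92.1 CPM in anti-CD40L libraries, 94.1, 80.1 and 78 CPM in libraries labelled KO and 82, 86.4 and 90 CPM in isotype libraries.

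In the small-subunit processome, the UtpA and UtpB groups, which bind the precursor early, held 4 called members of 8. Of all tested genes 2.91% were called higher, and 6.37% of those at member levels. The U3 proteins, which join the processome with its U3 guide RNA, held none of 3, too few genes to set them apart. In the UtpA group, Wdr75 (chromosome 1, 45795153 to 45823638) had 264, 225 and 266 CPM in anti-CD40L libraries, 191, 204 and 227 CPM in libraries labelled KO and 190.0, 184 and 198 CPM in isotype libraries. All anti-CD40L libraries lay above all isotype libraries, replicate 2 least, with a log2 fold change of 0.40 ± 0.09 (SE) (edgeR adjusted p = 0.0154, range 0.000984 to 0.0685). Heatr1, a large scaffold protein of the same group (chromosome 13, 12395375 to 12438893), had 602, 534 and 529.7 CPM in anti-CD40L libraries, 458, 498 and 500.0 CPM in libraries labelled KO and 443, 421 and 489 CPM in isotype libraries. It was higher in each anti-CD40L library than in any other library, at a log2 fold change of 0.30 ± 0.08 (SE) (edgeR adjusted p = 0.0414, range 0.00699 to 0.166). Wdr43, the most abundant of the group per coding kilobase, had 498, 439.5 and 483 CPM in anti-CD40L libraries, 453, 459 and 500.3 CPM in libraries labelled KO and 384, 399.7 and 404 CPM in isotype libraries and stood just outside the call, at 0.26 ± 0.08 (SE) with an edgeR adjusted p of 0.0529 (range 0.00793 to 0.159). Utp15 and Utp4 had log2 fold changes of 0.20 and 0.13, and Utp4 was the lowest of the group.

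In the UtpB group, Utp18 (chromosome 11, 93859243 to 93885766) had 202, 197 and 248 CPM in anti-CD40L libraries, 169, 175 and 200.4 CPM in libraries labelled KO and 159.8, 176 and 159 CPM in isotype libraries. Anti-CD40L replicate 3 was the highest, and anti-CD40L libraries did not overlap isotype libraries but overlapped those labelled KO, with a log2 fold change of 0.39 ± 0.10 (SE) (edgeR adjusted p = 0.0327, range 0.00286 to 0.104). Wdr3 (chromosome 3, 100138180 to 100162407) had 246, 214 and 239.6 CPM in anti-CD40L libraries, 206, 202 and 204 CPM in libraries labelled KO and 190.4, 183 and 194 CPM in isotype libraries. Its libraries labelled KO lay within 4 CPM of each other and between the other groups, and its log2 fold change on anti-CD40L was 0.30 ± 0.08 (SE) (edgeR adjusted p = 0.0263, range 0.00258 to 0.113). Tbl3, the remaining member, was at 0.17 ± 0.09 (SE) and not called.

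The U3 proteins had the lowest median log2 fold change of the role groups, 0.03. This group leaves out Mphosph10, the partner of Imp3 and Imp4, which was not a member and was called higher, as given below. Imp4 had 159, 156 and 166 CPM in anti-CD40L libraries, 170.4, 168 and 155 CPM in libraries labelled KO and 149, 147 and 158 CPM in isotype libraries, with overlap between anti-CD40L and isotype libraries. Imp3, its partner in the same subcomplex, was the lowest of all 55 members at -0.10 ± 0.11 (SE) (edgeR adjusted p = 0.587), with 83, 77.1 and 69.2 CPM on anti-CD40L and 76.8, 93.8 and 76.7 CPM on isotype. Rrp9, which binds the U3 RNA, was at 0.03 ± 0.09 (SE).

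Of the 11 other small-subunit factors 2 rose (18.2%), against 2.91% of all tested genes and 6.37% at member levels. Ltv1 acts late, on cytoplasmic precursors of the small subunit (chromosome 10, 13178597 to 13193137), and had 177, 168 and 191 CPM in anti-CD40L libraries, 168, 152 and 155 CPM in libraries labelled KO and 136, 148 and 153 CPM in isotype libraries. Each anti-CD40L library lay above all others, by a narrow margin over the highest labelled KO, and the log2 fold change against isotype was 0.30 ± 0.08 (SE) (edgeR adjusted p = 0.0395, range 0.00813 to 0.138). Utp20, a very large processome scaffold (chromosome 10, 88746607 to 88826814), had 491, 425 and 397 CPM in anti-CD40L libraries, 374, 401 and 414 CPM in libraries labelled KO and 361, 337 and 364 CPM in isotype libraries. Anti-CD40L replicate 1 was the highest, anti-CD40L libraries did not overlap isotype libraries but overlapped those labelled KO, and the log2 fold change was 0.31 ± 0.09 (SE) (edgeR adjusted p = 0.0442, range 0.00956 to 0.17). Tsr1, the highest of this group per coding kilobase and a factor that sits on late small-subunit precursors, had 355, 339 and 351 CPM in anti-CD40L libraries, 324, 332 and 340.3 CPM in libraries labelled KO and 307, 323 and 323 CPM in isotype libraries and was not called at 0.13 ± 0.07 (SE). Noc4l, a processome protein, was the lowest of the group at 0.07. Nob1, the nuclease that makes the last cut of small-subunit RNA, was at 0.22 ± 0.12 (SE), with 107, 105 and 147 CPM on anti-CD40L and 101, 100.1 and 105 CPM on isotype, so anti-CD40L replicate 3 was far above the rest.

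The large-subunit factors held 1 called member of 16, a share near the 6.37% of genes at member levels called higher. In the PeBoW complex, which is required for processing the large-subunit RNAs, 0 of 3 were called, and the log2 fold changes were 0.18 for Wdr12, 0.10 for Bop1 and 0.04 for Pes1. Pes1 had 303, 302 and 289.9 CPM in anti-CD40L libraries, 320.1, 287 and 311 CPM in libraries labelled KO and 288, 299 and 285 CPM in isotype libraries. Of the 13 other large-subunit factors 1 was called, and it had the highest fold change of all members. Brix1, needed for assembly of large-subunit precursors (chromosome 15, 10474779 to 10485937), had 204, 158 and 177 CPM in anti-CD40L libraries, 137, 133 and 181 CPM in libraries labelled KO and 124, 122 and 132 CPM in isotype libraries. The anti-CD40L libraries lay above the isotype libraries and overlapped the libraries labelled KO, of which replicate 3 was high. The log2 fold change on anti-CD40L was 0.51 ± 0.12 (SE), or 1.43-fold, with an edgeR adjusted p of 0.0204 (range 2.66e-05 to 0.0844). Nop16, the highest of the group per coding kilobase, had 163, 163 and 181 CPM in anti-CD40L libraries, 172, 161 and 149.6 CPM in libraries labelled KO and 137, 159.8 and 146 CPM in isotype libraries and was not called at 0.19 ± 0.09 (SE). Grwd1, a histone-binding and ribosome assembly protein, and Mrto4, which is related to a ribosomal stalk protein, were the lowest at 0.02 each, and 2 pseudogenes are named after Mrto4.

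**Figure D3:**
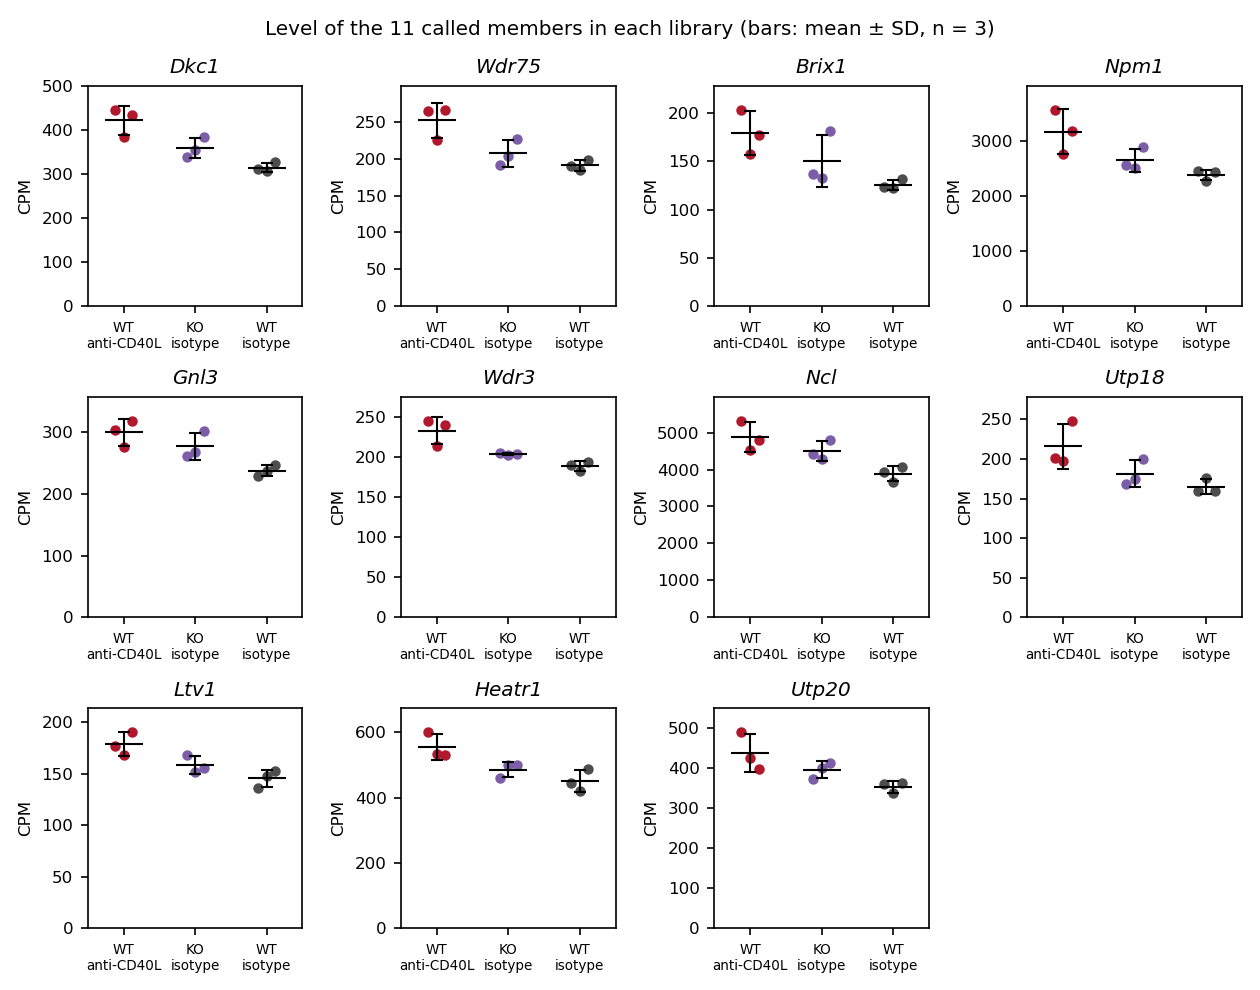
CPM of the 11 called members in every library, anti-CD40L left, labelled KO in the middle and isotype right, each axis from 0; lines are means and bars SD over n = 3. For all 11 the group means fall in the order anti-CD40L, labelled KO, isotype, and the anti-CD40L libraries lie above the isotype libraries. The genes were picked by their call of anti-CD40L above isotype, so only the place of the KO mean was free.

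Each of the 11 calls except that of Dkc1 was lost when some single library was left out. With isotype replicate 1 or isotype replicate 2 left out, 1 member was called, which was Dkc1 both times. Without isotype replicate 3 the count was 3, without anti-CD40L replicate 1 it was 2, and without the library labelled KO replicate 2, which enters the shared estimate of spread, it was 6. Without anti-CD40L replicate 3, the library that stood apart, 9 members were called, of which 7 were among the 11. By direction, 51 to 53 members were positive in all alternatives run.

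Several values moved with this comparison. The 7 B cell markers used summed to 0.955 to 12.5 CPM in anti-CD40L libraries. Their sum was 6.37 to 16.1 CPM in libraries labelled KO and 10.4 to 31.8 CPM in isotype libraries. Only 1 of the 7, Fcer2a, was called lower on anti-CD40L than on isotype. Fcer2a gave 13.1, 16.4 and 5.51 CPM of the isotype sums of 23.1, 31.8 and 10.4 CPM. Its level was 0 to 1.52 CPM in anti-CD40L libraries and 0.293 to 0.827 CPM in libraries labelled KO. Cd79a, Ms4a1 and Pax5 lay lower on anti-CD40L than on isotype, by log2 fold changes of -0.14, -1.24 and -1.16. Cd79b and Cd22 lay higher, by 0.42 and 0.32. None of these was called, and Blk was not tested. The 8 myeloid markers summed to 0 to 0.627 CPM in anti-CD40L libraries, 2.48 to 13.3 CPM in libraries labelled KO and 3.67 to 4.01 CPM in isotype libraries. Of these 8 myeloid markers, Itgam and Fcgr3 were called lower on anti-CD40L. Cd14 had 1 count in isotype replicate 1 and 0 in every other library of the 3 groups. NR_046233, the most abundant row without a symbol in the annotation used, took 0.766%, 0.821% and 1.41% of counts in anti-CD40L libraries, 1.21%, 1.14% and 1.14% in libraries labelled KO and 1.18%, 2.64% and 2.37% in isotype libraries. It was highest in isotype replicates 2 and 3, anti-CD40L and isotype libraries overlapped, and its log2 fold change on anti-CD40L was -1.05 ± 0.30 (SE), not called (edgeR adjusted p = 0.0531, range 4.53e-28 to 0.204). The part of these traces, of this row and of depth in the members' values was not tested. An exon of 22 members, among them Dkc1, Gnl3, Heatr1 and Wdr3 of the 11 called, overlaps a gene on the opposite strand by at most 820 bases, and without a statement on strand the reads of such pairs cannot be told apart.

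In the libraries labelled KO the members also lay above wild type on isotype antibody, but none passed the test. This comparison shares the isotype libraries with the one above, so like values in the 2 are not independent. By edgeR 0 of 55 members were called, as were 0.0% of all 11256 tested genes in either direction, and DESeq2 and limma-voom also called 0 members. At an unadjusted p under 0.05, 14 members were higher and 0 lower, against 2.47% higher and 3.3% lower of all tested genes. The fold change was positive for 49 members, with a median log2 fold change of 0.14, against a median of 0.00 and 50.6% positive over all tested genes and 54.1% positive at member levels. Every library labelled KO lay above every isotype library for 26 members (47.3%), against 7.61% of all tested genes and 10.8% of the 3517 genes at member levels, and every one lay below for 0 members, against 7.62% and 8.62%.

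The 3 members of smallest p in this comparison were Rrp1b, Wdr43 and Nat10. Rrp1b, a nucleolar protein of large-subunit processing, had 253, 253 and 253 CPM in the libraries labelled KO, 245, 210.4 and 233 CPM in anti-CD40L libraries and 201, 208 and 214 CPM in isotype libraries. The libraries labelled KO were equal to within 1 CPM and above all 6 others, at a log2 fold change of 0.28 ± 0.08 (SE) against isotype (edgeR adjusted p = 0.499, range 0.0546 to 1). Wdr43 was 0.25 ± 0.08 (SE) on the log2 scale above isotype (edgeR adjusted p = 0.632, range 0.11 to 1), with the libraries given above. Nat10, an enzyme that acetylates small-subunit RNA, had 187, 211 and 203 CPM in the libraries labelled KO, 204, 198 and 189 CPM in anti-CD40L libraries and 169.9, 173 and 173 CPM in isotype libraries. Its libraries labelled KO did not overlap isotype, at 0.22 ± 0.07 (SE) (edgeR adjusted p = 0.71, range 0.0674 to 1).

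**Figure D4:**
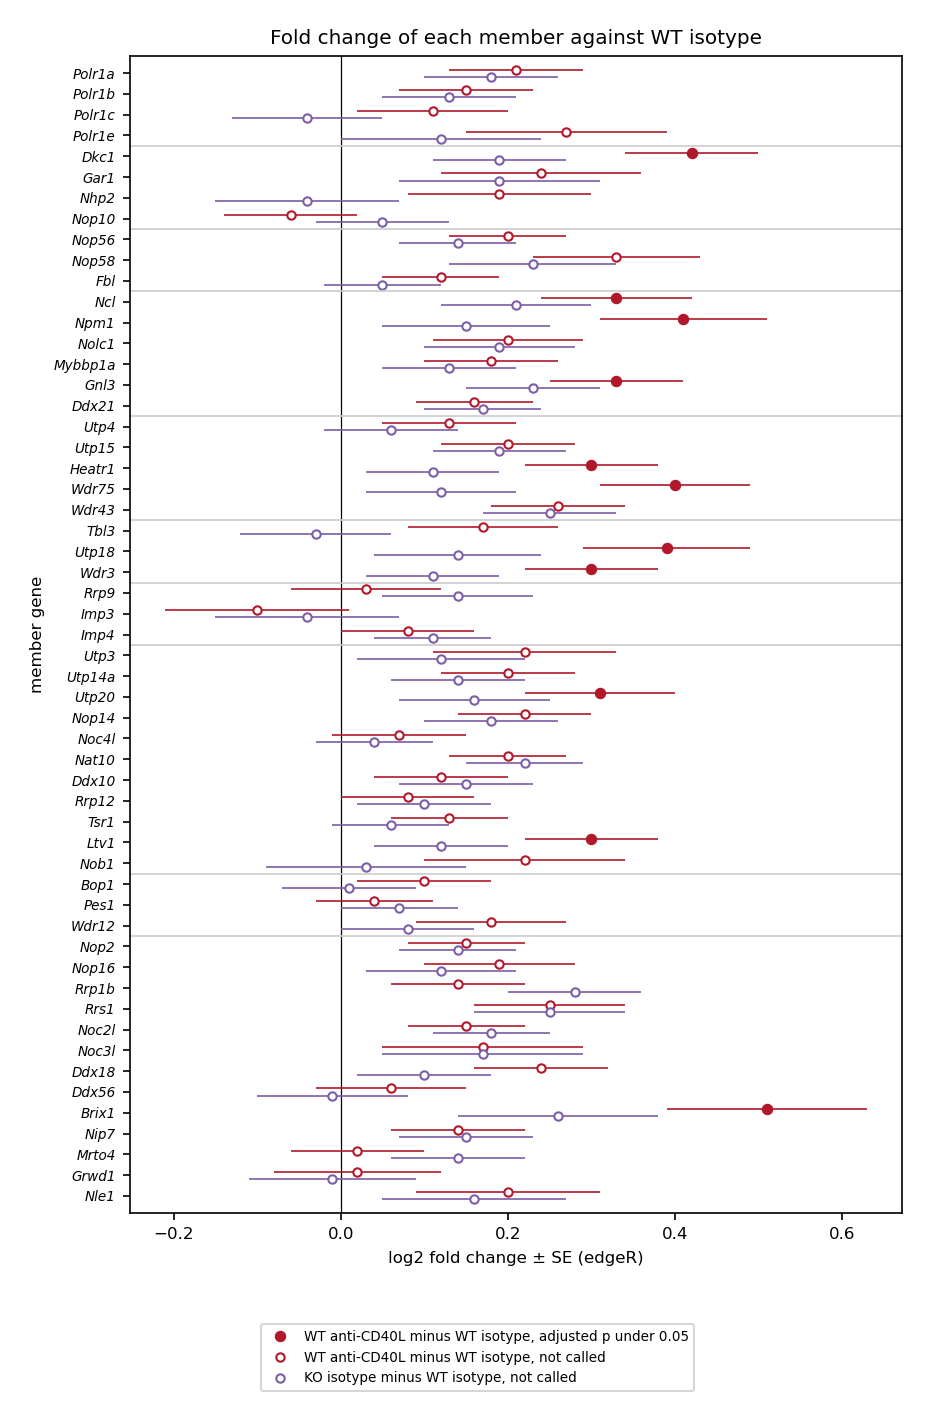
Log2 fold change ± SE of each member, by role, for anti-CD40L minus isotype in wild-type cells (red) and labelled KO minus isotype (purple); filled points have an adjusted p under 0.05. The 2 comparisons share the isotype libraries; the medians are 0.19 and 0.14, and all 11 filled points belong to the anti-CD40L comparison.

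By role, the median log2 fold change of the libraries labelled KO against isotype was 0.18 for the multifunctional nucleolar proteins, 0.15 for the other large-subunit factors and 0.14 for the box C/D proteins. It was 0.12 for RNA polymerase I subunits, box H/ACA proteins, UtpA proteins and the other small-subunit factors, 0.11 for the UtpB and the U3 proteins and 0.07 for PeBoW. For anti-CD40L against isotype the medians were 0.30 for UtpB, 0.27 for the multifunctional nucleolar proteins, 0.26 for UtpA, 0.21 for box H/ACA, 0.20 for box C/D and for the other small-subunit factors, and 0.18 for RNA polymerase I. They were 0.15 for the other large-subunit factors, 0.10 for PeBoW and 0.03 for the U3 proteins. The anti-CD40L median was at or above the KO median in each role group except the U3 proteins, a difference that was not tested. Group means fell in the order anti-CD40L, labelled KO, isotype for 36 of 55 members. The share was 22.8% of all tested genes and 31.0% of those at member levels. All 11 called members had this order, but their call already set anti-CD40L above isotype, so only the place of the KO mean was free. The KO mean was the highest for 13 members, against 28.0% and 23.1%, and the isotype mean the lowest for 48, against 31.5% and 40.3%. In 22 members every library of both other groups lay above every isotype library, against 2.75% of all tested genes and 5.26% at member levels; these counts use the isotype libraries of both comparisons.

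The direct comparison of anti-CD40L libraries with libraries labelled KO found no called member. This comparison tests whether the response to the antibody and the difference of the KO group differ from each other. By edgeR 0 of 55 members were called, against 1.79% of all tested genes higher and 5.04% lower, 6.83% in all, and 3.72% higher and 5.6% lower among the genes at member levels. At an unadjusted p under 0.05, 6 members were higher and 0 lower, against 9.11% and 13.1% of all tested genes. DESeq2 called 2 higher, Dkc1 and Wdr75, limma-voom called 0, and limma-voom with quality weights called 3, Brix1, Npm1 and Wdr75. The same tools called 3.7%, 1.91% and 5.47% of all tested genes higher, so these counts lie near the background. The fold change was positive for 41 members, against 48.6% of all tested genes and 57.5% at member levels, and the median was 0.05, against -0.01 over all genes and 0.04 at member levels. Groups did not overlap upward for 4 members, Dkc1, Wdr3, Heatr1 and Ltv1, against 10.3% of all tested genes and 16.2% at member levels, and downward for 2, Rrp1b and Mrto4, against 15.9% and 14.1%; these 6 are named after their values were seen. The members of smallest p were Wdr75 at 0.28 ± 0.09 (SE) (edgeR adjusted p = 0.0816, range 0.0348 to 0.236), Dkc1 at 0.23 ± 0.08 (SE) (adjusted p = 0.11, range 0.0454 to 0.269) and Npm1 at 0.26 ± 0.10 (SE) (adjusted p = 0.143, range 0.0461 to 0.371). Their values in each library are given above. A p that misses the threshold does not show that the 2 groups act alike, and the standard error of a single member's log2 fold change was 0.07 to 0.12.

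**Figure D5:**
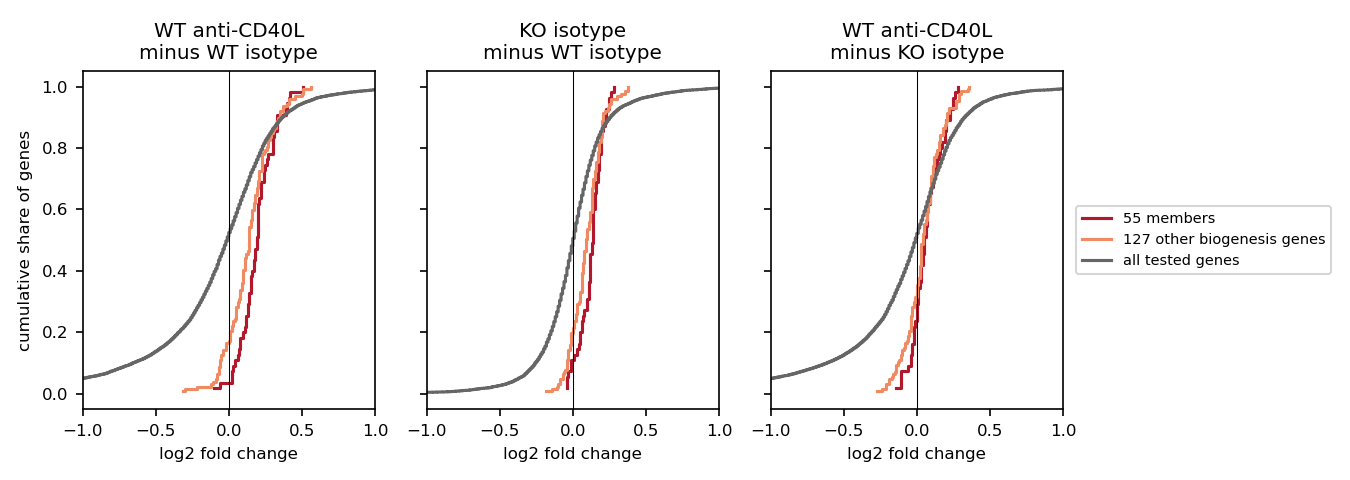
Cumulative share of genes by log2 fold change in the 3 comparisons, for the 55 members (red), 127 other ribosome biogenesis genes (orange) and all tested genes (grey). Member medians are 0.19, 0.14 and 0.05 from left to right, and all-gene medians -0.01, 0.00 and -0.01.

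Other genes of the same pathway also stood higher on anti-CD40L, with a lower median than the members. On anti-CD40L against isotype, 13 of 127 further ribosome biogenesis genes rose (10.2%) and 0 fell by edgeR. Of all tested genes 2.91% were higher and 6.46% lower, and of the 3517 genes at member levels 6.37% and 7.25%. That set was not matched to the levels of the 127 genes. By list, 8.16% to 16.7% were called higher, from 1 to 4 genes each, and the lowest shares, 8.16% and 9.76%, lie near 6.37%. At an unadjusted p under 0.05, 43 were higher and 2 lower, against 11.9% and 14.5% of all tested genes. The fold change was positive for 105 of 127, with a median of 0.14, against 58.5% and 0.05 at member levels. In the libraries labelled KO 0 were called, 100 were positive and the median was 0.09. Between anti-CD40L libraries and libraries labelled KO 0 were called by edgeR, 83 were positive and the median was 0.04; DESeq2 called 0 and 5 in these 2 comparisons. At an unadjusted p under 0.05, 16 were higher in the libraries labelled KO than in isotype libraries, against 2.47% of all tested genes, and 13 were higher on anti-CD40L than in the libraries labelled KO, against 9.11%, with 0 lower in each. The 13, and the 5 of DESeq2 against its 3.7%, lie near the background.

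Of 12 further genes of the RNA polymerase I machinery 2 rose. Rrn3, the initiation factor that couples the polymerase to its promoter complex, averaged 169 ± 2.97 CPM in anti-CD40L libraries, 147 ± 10.7 CPM in libraries labelled KO and 135 ± 5.97 CPM in isotype libraries (SD, n = 3 each), a log2 fold change on anti-CD40L against isotype of 0.33 ± 0.08 (SE) (edgeR adjusted p = 0.0214, range 0.00162 to 0.0858). Taf1d, a subunit of the promoter selectivity factor, averaged 140 ± 14.6 CPM in anti-CD40L libraries, 122 ± 28.5 CPM in libraries labelled KO and 94.9 ± 3.27 CPM in isotype libraries, a log2 fold change of 0.56 ± 0.14 (SE) (adjusted p = 0.0246, range 7.32e-06 to 0.0931). The median over all 12 was 0.04. Of 10 snoRNP assembly factors 1 rose: Naf1, which assembles box H/ACA particles, averaged 90.2 ± 7.05 CPM in anti-CD40L libraries, 72.8 ± 14.3 CPM in libraries labelled KO and 63.3 ± 1.6 CPM in isotype libraries, a log2 fold change of 0.51 ± 0.13 (SE) (adjusted p = 0.0236, range 0.000399 to 0.0863).

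Of 41 further small-subunit factors 4 rose. Aatf, a nucleolar factor of early small-subunit processing, averaged 139 ± 13.2 CPM in anti-CD40L libraries, 123 ± 9.89 CPM in libraries labelled KO and 109 ± 1.75 CPM in isotype libraries, a log2 fold change of 0.35 ± 0.09 (SE) (edgeR adjusted p = 0.0305, range 0.00615 to 0.0971). Esf1 and Utp6 had log2 fold changes of 0.35 ± 0.10 (SE) and 0.27 ± 0.08 (SE) (adjusted p = 0.0395, range 0.0107 to 0.129, and 0.0427, range 0.00767 to 0.132). The other gene, outside the rule for names and named after its values were seen, was Mphosph10, at 0.32 ± 0.09 (SE) (adjusted p = 0.0445, range 0.0136 to 0.122). Mphosph10 encodes the partner of Imp3 and Imp4, which were not called. Utp6 belongs to the UtpB group together with Utp18 and Wdr3, which were.

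Of 49 further large-subunit factors 4 rose. Nmd3, the export adaptor of the large subunit, averaged 129 ± 6.54 CPM in anti-CD40L libraries, 121 ± 11.6 CPM in libraries labelled KO and 98.4 ± 5.09 CPM in isotype libraries, a log2 fold change of 0.40 ± 0.09 (SE) (edgeR adjusted p = 0.0157, range 0.00109 to 0.0631). Rpf1 and Rsl1d1 had log2 fold changes of 0.45 ± 0.11 (SE) and 0.37 ± 0.09 (SE) (adjusted p = 0.0189, range 0.000898 to 0.0691, and 0.0203, range 0.000974 to 0.0858). Rpf2, also named after its values were seen, was at 0.51 ± 0.13 (SE) (adjusted p = 0.0317, range 6.11e-05 to 0.106); in yeast its protein works with that of Rrs1. Of 15 genes of the nuclear exosome and related nucleases 2 rose. Mtrex, the helicase that feeds RNA to the exosome, averaged 237 ± 5.51 CPM in anti-CD40L libraries, 196 ± 13.8 CPM in libraries labelled KO and 184 ± 12.2 CPM in isotype libraries, a log2 fold change of 0.37 ± 0.08 (SE) (adjusted p = 0.0138, range 0.000462 to 0.0691), and the exosome subunit Exosc3 was at 0.41 ± 0.11 (SE) (adjusted p = 0.0332, range 0.00843 to 0.125). The 127 genes share their source of RNA with the members and are not a separate sample.

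The E-box occurred among called and other members. Of the 10 called members with a promoter window 3 held it (30%), against 9 of 39 other members (23.1%) and 18 of 104 other pathway genes (17.3%), and the differences between these shares were not tested. Utp18, Ltv1 and Utp20, whose sequences are shown above, had log2 fold changes of 0.39, 0.30 and 0.31 on anti-CD40L, and Nop2 and Imp4 of 0.15 and 0.08. The other members with the E-box were Utp4, Wdr43, Mybbp1a, Tsr1, Nle1, Grwd1 and Pes1, none of which was called. Their log2 fold changes on anti-CD40L ran from 0.02 for Grwd1 to 0.26 for Wdr43. Dkc1, Brix1 and Wdr75, which had the 3 smallest p-values of the list, did not hold these letters in their windows.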

How the data were processed

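The deposited table holds expected counts by RefSeq transcript, without normalization, in 42361 rows. The submitters' processing notes list CASAVA 1.8.2, HISAT2 2.1.0 and build mm10; how reads were counted, with or without strand and with several alignments, is not stated in the sources used here. Symbols were taken from RefSeq's GRCm38.p6 table for 42203 rows and GENCODE vM21 for 65. The row with the highest total was kept per gene and rounded to whole numbers, and CPM refers to TMM-scaled library sizes. The main test was edgeR 4.0.16 (quasi-likelihood, R 4.3.3) on 9 libraries together, with Benjamini-Hochberg adjustment over 11256 genes. The design assumed whole counts. Alternatives were other scalings, no filter, DESeq2 1.42.0, limma-voom (limma 3.58.1), 2 groups only, a replicate block, each library left out and, chosen after seeing the data, the mean of a gene's rows.

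The members and lists were chosen with earlier results of these data known. Values per library are given for members called in any comparison, the member of highest level per coding kilobase in each role group, and the 3 of smallest p where none was called. Nop58, Polr1e, Nob1 and Imp3 were added after their values were seen. Of the other pathway genes, up to 3 per list and direction are named. The labels do not tie libraries to separate animals or cultures, so a p-value reflects the spread among libraries, possibly technical. The fit was tested on simulated data. One item of the marker lists is not reported here.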

Additional observations from a re-analysis of the deposited data

How the results depend on the processing

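On anti-CD40L against isotype, the count of 11 members called higher was 11 to 16 under other scalings, filters, tools, rows or 2 groups only, and 1 to 13 with 1 library left out; 0 members were called lower in any of these. Deviations from the group mean correlated at 0.18, 0.084 and 0.078 between same-numbered anti-CD40L and isotype libraries. Between differently numbered libraries of these 2 groups the values were -0.106 to 0.013. Same-numbered pairs that include a library labelled KO lay between -0.149 and 0.062. The labels do not say whether the numbers pair libraries, and these values do not settle it. With a replicate block 8 members were higher, all 8 among the 11. Other pathway genes called higher, 13 in the main test, numbered 28 with DESeq2, 8 with the replicate block and 1 to 21 with a library left out, and 1 was lower without the filter and 1 with voom quality weights. Of all genes, 328 higher became 628 without the filter, 650 with DESeq2, 599 with quality weights and 64 to 528 with a library left out, and 727 lower became 407 to 814 with a library left out. The members' median of 0.19 was 0.14 with quality weights and 0.15 to 0.22 with a library left out, and that of the other pathway genes 0.12 to 0.16.

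For the libraries labelled KO against isotype, 0 members were called in any alternative. All genes called higher numbered 32 without the filter, 15 with DESeq2, 18 with quality weights, 1 with 2 groups only and 0 to 1 with a library left out, and those called lower 70 without the filter, 29 with DESeq2, 44 with quality weights, 2 with 2 groups only and 0 to 2 with a library left out. Without scaling the medians were 0.15 for members and 0.11 for the other pathway genes, and 0.11 to 0.14 and 0.08 to 0.11 with a library left out.

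Between anti-CD40L libraries and those labelled KO, members called higher numbered 2 with DESeq2, 3 with quality weights and 0 to 2 with a library left out. Other pathway genes called higher numbered 2 without the filter, 5 with DESeq2, 8 with quality weights and 0 to 6 with a library left out. Of all genes, 202 higher became 437 without the filter, 416 with DESeq2, 616 with quality weights, 102 with 2 groups only and 56 to 404 with a library left out, and 567 lower became 868 without the filter, 943 with quality weights and 290 to 618 with a library left out. The members' median was 0.04 to 0.08 and that of the other pathway genes 0.02 to 0.07 over the alternatives. No called gene and no median of the members or the other pathway genes changed sign; the median of all genes lay between -0.09 (without scaling, anti-CD40L against labelled KO) and 0.03. Among single members the fold change turned sign in at least 1 alternative for 3 of 55 on anti-CD40L against isotype, 9 of 55 for labelled KO against isotype and 21 of 55 between anti-CD40L and labelled KO, where 35 to 44 were positive. The cause of these shifts was not tested. Depth left each member at least 362 counts in every library.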
